A study of Mus musculus with 8 samples.

Results

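The comparison set MFN2 WT spermatocytes of mice at PD 52 (postnatal day 52, adult) against those at PD 24 (juvenile, during the first wave of spermatogenesis). It used 4 of the 8 libraries of the series, namely the P (pachytene) and the L/Z (leptotene and zygotene) spermatocytes of MFN2 WT mice at each age, chosen by label alone and paired by stage. MFN2 WT mice were C57BL/6J males labelled Mfn2 loxp/loxp, and they carried the floxed exon 6 but no Cre. The study's methods also allow Mfn2 fl/+ animals as controls, so the floxed allele was shared by both ages. The other 4 libraries were MFN2 cKO spermatocytes, which in addition carried Stra8-Cre, a Cre driven by the promoter of a gene that switches on as germ cells approach meiosis. The cells were separated through a BSA gradient, which sorts mainly by size, and were recognised under the light microscope. The number of mice behind a library was not given in the sources used here. Each group held 1 library, so a difference within a stage had no replicate check. RNA was counted over 16010239 to 20379950 reads on genes in the 4 libraries, and 19417 of 54532 genes had an FPKM above 1 (reads per base of gene, made comparable between libraries by the authors) in at least 1 of them.

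Spermatogenesis begins after birth as a single synchronous wave. Spermatogonia enter meiosis as leptotene and zygotene spermatocytes, pair their chromosomes as pachytene spermatocytes, divide, and become round and then elongating spermatids. In elongating spermatids the transition proteins and then the protamines replace histones, while the tail and the acrosome are built. A juvenile testis in this wave holds many spermatocytes and few late spermatids, whereas the adult testis holds all stages together with mature Leydig cells, which make testosterone between the tubules. Sertoli cells nurse the germ cells inside the tubules.

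The stage labels were first set against their markers. Of 27 measured leptotene and zygotene genes, 14 were higher in L/Z than in P at PD 24 and 14 at PD 52, so this list did not separate the fractions. Of 16 pachytene genes, 13 were higher in P at PD 24 and 10 at PD 52. The genes for chromatin condensation of spermatids were higher in L/Z than in P for 7 of 7 members at both ages, with a median log2 difference of 0.99 at PD 24 and 1.00 at PD 52. *Stra8*, the retinoic acid target that marks entry into meiosis, was at 28.4 FPKM in L/Z against 14.6 in P at PD 24, and at 15.7 against 16.5 at PD 52. The fractions are therefore called P and L/Z after their labels, with no claim on their makeup. As bulk libraries, they cannot tell fewer cells of a type from less RNA per cell.

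In P, 1618 genes were at least 2-fold higher at PD 52 (8.33% of the genes tested) and 880 were at least 2-fold lower (4.53%), on the log2(FPKM + 1) scale. In L/Z, 1432 genes were higher (7.37%) and 970 lower (5.0%), and among its protein-coding genes alone 534 were higher and 661 lower. The median difference over all genes was -0.00 in P and 0.08 in L/Z. At both stages 562 genes were higher (2.89%) and 188 were lower (0.968%). These shared genes made up 34.7% of the genes higher in P and 39.2% of those higher in L/Z, and 21.4% and 19.4% of those lower. A further 39 genes were higher in P and lower in L/Z (0.201%), and 37 were the reverse (0.191%).

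The common effect of age was fitted with limma over the 4 libraries, with stage as a term. The residual of a gene, with 1 degree of freedom, is the disagreement between its P and its L/Z pair. limma pools this with a spread shared by genes of like level, which carried 6.99 degrees of freedom. The SE and adjusted p of a gene therefore rest more on that shared spread than on its own agreement between the stages. After Benjamini-Hochberg adjustment 402 genes rose (2.07%) and 129 fell (0.664%), and 3679 had an unadjusted p under 0.05. Of these 531 genes, 520 were at least 2-fold changed the same way at both stages. The genes that rose comprised 209 protein-coding genes, 100 lincRNAs and 45 antisense genes, and those that fell 91, 1 and 1. The calls lay close to the threshold. No gene passed after a further median-of-ratios scaling (smallest adjusted p = 0.058), without the trend of variance on expression (0.0535), or with all 8 libraries in the fit (0.0679), and "rose" and "fell" below hold for the limma fit as described.

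**Figure D1:**
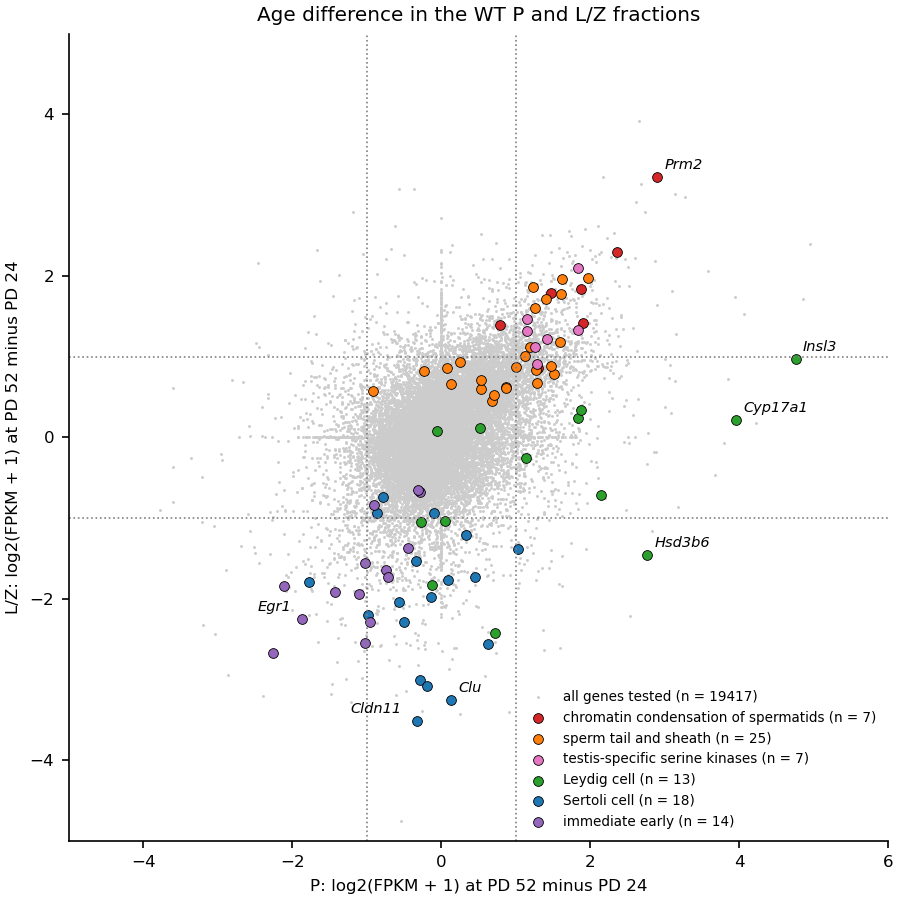
Each point is a gene, placed by its PD 52 minus PD 24 difference of log2(FPKM + 1) in P (x axis) and in L/Z (y axis) of MFN2 WT mice; dotted lines mark 2-fold. Condensation and kinase genes and most tail genes lie at upper right, and immediate early genes at lower left. Sertoli cell genes lie low on the L/Z axis, and *Insl3* (4.75 in P and 0.97 in L/Z) far right among the Leydig cell genes.

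Genes of spermatid chromatin condensation were higher at PD 52 at both stages. Of the 7 measured, 6 were at least 2-fold higher at PD 52 in P and 6 in L/Z, with medians of 1.87 and 1.78, and 5 rose in the limma fit (*Prm1*, *Prm2*, *Prm3*, *Tnp1* and *Tnp2*). The summed FPKM of the 7 went from 1068 to 4229 in P and from 2091 to 9145 in L/Z. *Prm1* and *Prm2* encode the protamines that package sperm DNA, and *Tnp1* and *Tnp2* the transition proteins that precede them. *Prm1*, *Prm2*, *Prm3* and *Tnp2* lie side by side on the reverse strand of chromosome 16, and *Tnp1* lies on chromosome 1.

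The bases just before the RefSeq transcription start of the 4 genes are shown because these genes moved together at both stages. Each stretch holds the 120 bases that end 1 base before the start, written 5′ to 3′ on the gene's strand (RefSeq, GRCm38.p6), and capitals mark TGANNTCA, a CRE-like motif, and TATAA on either strand. They lie at chr16:10796824-10796943, chr16:10792106-10792225, chr1:73015900-73016019 and chr16:10788656-10788775, all on the reverse strand. A GENCODE transcript of *Prm1* starts inside the first. The annotated genes of *Prm1* and *Prm2* span their whole stretches, and those of *Tnp1* and *Tnp2* begin inside theirs, at bases 73015909 and 10788660.
Prm1: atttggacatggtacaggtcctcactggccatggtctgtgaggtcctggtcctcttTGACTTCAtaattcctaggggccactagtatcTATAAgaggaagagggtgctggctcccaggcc
Prm2: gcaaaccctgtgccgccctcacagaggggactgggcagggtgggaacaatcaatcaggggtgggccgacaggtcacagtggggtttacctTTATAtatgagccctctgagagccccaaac
Tnp1: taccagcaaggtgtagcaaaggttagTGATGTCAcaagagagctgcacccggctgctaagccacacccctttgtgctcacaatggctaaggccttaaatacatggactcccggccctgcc
Tnp2: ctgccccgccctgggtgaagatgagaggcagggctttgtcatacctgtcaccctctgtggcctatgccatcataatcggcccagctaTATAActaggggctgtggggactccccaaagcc
The CRE-like motif began 64 bases before the start of *Prm1* and 94 before that of *Tnp1*. Within 250 bases of the start, it was found in 3 of 6 condensation genes with a RefSeq promoter and in 11.9% of all 32851 RefSeq promoters, and TATAA in 3 of 6 and 22.8%. A match is a description of letters, not of a bound site.

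*Prm2* had 152 FPKM in P at PD 24 and 1134 at PD 52, and 298 and 2801 in L/Z. It rose by a log2 of 3.06 (SE 0.21, adjusted p = 0.011), and the FPKM ratio was 7.46 in P (95% counting interval 7.16 to 7.77) and 9.41 in L/Z (9.13 to 9.69). *Prm1* had 218 and 1120 FPKM in P and 424 and 2081 in L/Z. It rose by 2.32 (SE 0.20, adjusted p = 0.011). Both protamines were thus higher at PD 52 than at PD 24 in either fraction, and higher in L/Z than in P at either age.

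*Tnp2* had 411 and 1145 FPKM in P and 778 and 2684 in L/Z, and it rose by 1.63 (SE 0.20, adjusted p = 0.020). *Tnp1* had 103 and 379 FPKM in P and 211 and 759 in L/Z, and it rose by 1.86 (SE 0.23, adjusted p = 0.021). *Prm3* had 24.9 and 95.8 in P and 51.8 and 140 in L/Z. The linker histones of spermatids, *Hils1* (log2 differences 1.30 in P and 0.86 in L/Z) and *H1fnt* (0.78 and 1.39), did not pass the test.

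**Figure D2:**
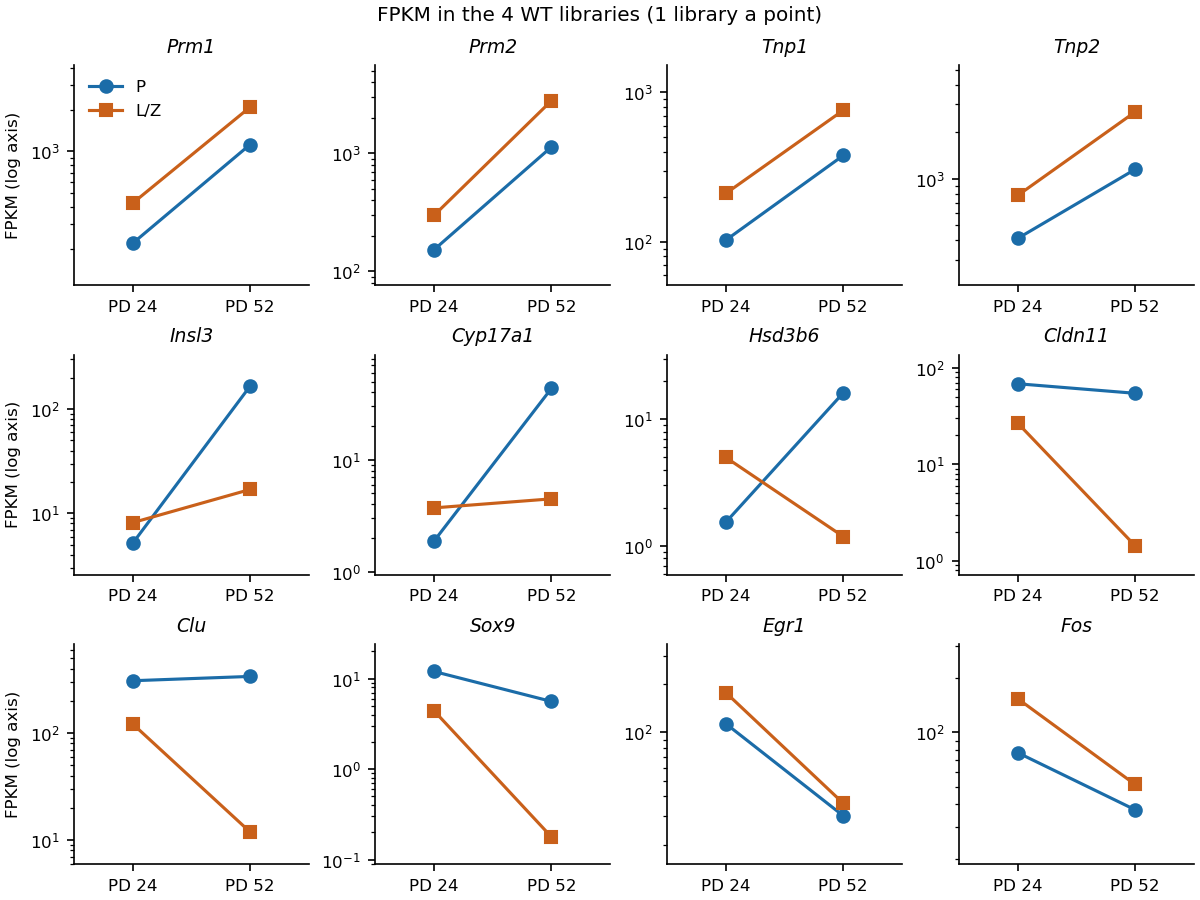
FPKM (log axis, a range of its own in each panel) of 12 genes in the 4 MFN2 WT libraries, with 1 library a point and lines joining the ages within P (circles) and L/Z (squares). The protamines and transition proteins climb in parallel, *Insl3*, *Cyp17a1* and *Hsd3b6* climb in P, *Cldn11* and *Clu* drop in L/Z, and *Egr1* and *Fos* drop in both.

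Genes of the sperm tail and its sheaths were higher too. Of 25 measured, 14 were at least 2-fold higher at PD 52 in P (10 after the adjustment for gene length described below) and 9 in L/Z, and 0 were lower at either stage. The medians were 1.12 and 0.86, and 7 rose in the limma fit. *Smcp*, a protein of the mitochondrial sheath, had 168 and 518 FPKM in P and 356 and 1387 in L/Z (log2 1.79, SE 0.22, adjusted p = 0.021). *Odf1*, an outer dense fibre protein, had 120 and 366 in P and 250 and 862 in L/Z (1.69, SE 0.23, adjusted p = 0.023). *Akap4*, the main scaffold of the fibrous sheath and an X-linked gene, had 61.5 and 148 in P and 134 and 408 in L/Z (1.43, SE 0.25, adjusted p = 0.038). The other genes that rose were *Gapdhs*, *Oaz3*, *Spata18* and *Spata19*. *Smcp* and *Odf1* were among the 4 most abundant members. *Ropn1l* and *Meig1*, also among them, had smaller differences. *Ropn1l* had log2 differences of 0.53 and 0.60 and *Meig1* of 0.71 and 0.52, and neither passed the test. *Odf2*, a second outer dense fibre gene, had 0.24 and 0.93.

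Testis-specific serine kinases and their substrate *Tsks*, which act in spermatids, were higher for 7 of 7 members at both stages. At least 2-fold differences were found in 7 in P (3 after length adjustment) and 6 in L/Z, with medians of 1.28 and 1.31, and 5 rose. *Tssk6*, needed for chromatin condensation in sperm, had 13.4 and 50.3 FPKM in P and 23.3 and 103 in L/Z (adjusted p = 0.023). *Tssk2* had 54.8 and 132 in P and 115 and 250 in L/Z (adjusted p = 0.052) and missed the threshold.

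Genes of the acrosome and of sperm-egg binding had medians of 1.10 in P and 0.83 in L/Z over 23 members. Of these, 14 were at least 2-fold higher in P and 7 in L/Z, 0 were lower, and 3 rose (*Spam1*, the sperm hyaluronidase, *Tmem95* and *4930451I11Rik*). After length adjustment 7 were at least 2-fold higher in P and 1 in L/Z, with medians of 0.78 and 0.73. The 4 most abundant members varied. *Acr*, the acrosomal protease, had log2 differences of 0.15 and 0.50, *Zpbp2* of 0.16 and 0.37 and *Spata16* of 0.17 and 0.39. *Spata46* had 1.77 in P and 0.83 in L/Z. *Acrv1*, a component of the acrosomal matrix, had 15.8 and 34.9 FPKM in P and 37.6 and 74.7 in L/Z (adjusted p = 0.077).

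Sperm ion channels had medians of opposite sign at the stages, a difference that 1 pair a stage cannot test. The median over 14 measured members was -0.19 in P and 0.62 in L/Z, with 2 at least 2-fold higher and 3 lower in P, and 1 higher in L/Z. After length adjustment 0 were higher and 1 lower in P. *Catsper1*, a pore subunit of the sperm calcium channel, had differences of 0.91 in both. *Catsperg1*, an auxiliary subunit, had 91.2 and 30.3 FPKM in P and 29.2 and 45.3 in L/Z, and was the member with the lowest difference in P. By sequence 41.0% of the 50-base windows of its longest transcript also occur in other genes, chiefly *Catsperg2*. No member passed the test.

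Meiotic genes had medians nearer 0 than the spermatid lists. The 16 pachytene genes had medians of -0.13 in P and 0.44 in L/Z, with 2 at least 2-fold higher in P and 0 in L/Z, and 0 passed the test. *Ldhc*, the testis lactate dehydrogenase, had 2056 and 2910 FPKM in P and 1494 and 2122 in L/Z, log2 differences of 0.50 and 0.51. *Pgk2*, the testis phosphoglycerate kinase, had 168 and 277 in P and 253 and 448 in L/Z. *Hspa2*, a chaperone of pachytene cells, had 770 and 666 in P and 461 and 612 in L/Z.

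Leptotene and zygotene genes had medians of -0.14 and -0.11 over 27 members, and 0 passed. *Sycp3*, of the axial elements of the synaptonemal complex, had 69.3 and 58.4 FPKM in P and 38.4 and 32.3 in L/Z. By sequence 50.4% of its 50-base windows also occur in *Chpt1*. *Dmc1*, the meiotic recombinase, had 7.45 and 7.68 in P and 14.6 and 8.70 in L/Z. The 16 genes of the meiotic divisions had medians of -0.00 and -0.09.

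Spermatogonial genes were also near 0 in P. Differentiating spermatogonia genes (10) had medians of 0.21 in P and -0.45 in L/Z, undifferentiated spermatogonia genes (12 measured of 15) had -0.13 and -0.07, and 0 of either passed. *Dazl*, an RNA-binding protein of germ cells, had 46.6 and 41.9 FPKM in P and 70.2 and 47.1 in L/Z. *Kit*, the receptor of differentiating spermatogonia, had 3.76 and 3.19 in P and 6.91 and 5.30 in L/Z. The 12 spermiogenic regulators had medians of 0.34 and 0.47, and 1 rose, *Kif17*, a kinesin of round spermatids that carries a coactivator of CREM.

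**Figure D3:**
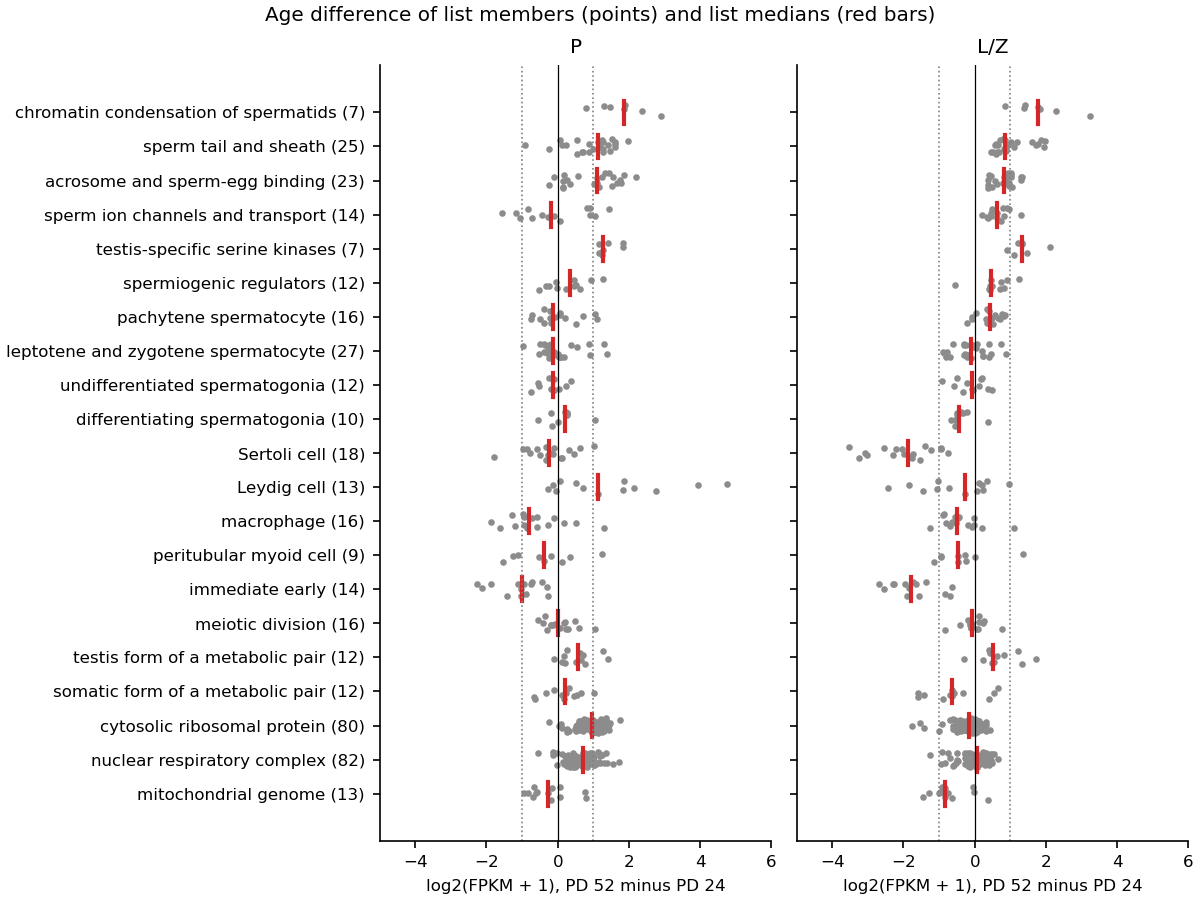
PD 52 minus PD 24 difference of log2(FPKM + 1) in MFN2 WT mice for each measured member (grey points, number in brackets) of each list, in P (left) and L/Z (right); red bars are list medians and dotted lines mark 2-fold. Condensation genes have medians of 1.87 and 1.78, Sertoli cell genes of -0.24 and -1.88, and Leydig cell genes of 1.14 and -0.26.

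Sertoli cell genes were lower at PD 52 for 18 of 18 measured members in L/Z and for 12 in P, with no test between the stages. In L/Z, 15 were at least 2-fold lower and 0 were higher, with a median of -1.88. In P, 1 was lower and 1 higher, with a median of -0.24. The summed FPKM of the list went from 903 to 916 in P and from 387 to 46.0 in L/Z. *Clu*, a secreted chaperone abundant in Sertoli cells, had 309 and 339 FPKM in P and 122 and 11.9 in L/Z, an FPKM ratio of 1.10 (counting interval 1.08 to 1.12) and 0.0976 (0.0897 to 0.106). *Cldn11*, the tight junction protein of the blood-testis barrier, had 68.6 and 54.6 in P and 26.8 and 1.43 in L/Z. *Inha*, the inhibin alpha subunit, had 115 and 94.4 in P and 50.2 and 5.34 in L/Z.

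The members that passed the test over both stages were *Amh* and *Sox9*. *Amh*, the hormone that Sertoli cells cease to make as they mature, had 12.3 and 2.87 FPKM in P and 3.83 and 0.40 in L/Z, so it fell at both stages (adjusted p = 0.023). *Sox9*, the Sertoli cell transcription factor, had 12.0 and 5.59 in P and 4.40 and 0.178 in L/Z, and it fell by 1.59 on the log2 scale (SE 0.32, adjusted p = 0.048). The lowest differences of single genes in L/Z named by the rule were *Cldn11* (-3.52), *Cst12* (-3.43), *1700011M02Rik* (-3.40) and *8030411F24Rik* (-3.39). All 4 had log2 differences between -0.32 and 0.91 in P.

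Leydig cell genes were higher at PD 52 for 10 of 13 measured members in P and for 6 in L/Z, and 1 pair a stage allows no test between the stages. Of the 13, 7 were at least 2-fold higher in P and 0 lower, with a median of 1.14. In L/Z, 5 were lower and none higher, and the median was -0.26. The summed FPKM went from 64.4 to 311 in P and from 67.9 to 51.7 in L/Z, and 0 members passed the common test. *Insl3*, the peptide hormone of Leydig cells, had 5.17 and 166 FPKM in P and 8.16 and 16.9 in L/Z, a ratio of 32.0 (counting interval 24.98 to 41.68) and 2.08 (1.60 to 2.71). *Cyp17a1*, the enzyme that commits steroids to androgens, had 1.88 and 43.5 in P and 3.71 and 4.47 in L/Z, a ratio of 23.2 (18.6 to 29.3) and 1.20 (0.952 to 1.52). *Hsd3b6*, a steroid dehydrogenase of adult Leydig cells, had 1.54 and 16.2 in P and 4.99 and 1.19 in L/Z, so its ratio was 10.5 (7.94 to 14.1) in P and 0.238 (0.158 to 0.348) in L/Z. Members also used outside Leydig cells, *Scarb1* (-0.05 and 0.07) and *Fdx1* (0.51 and 0.11), differed little.

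The stretch before *Insl3* is shown as that of the Leydig cell gene with the largest difference. It covers bases 250 to 51 before the RefSeq start, at chr8:71689002-71689201 on the forward strand (GRCm38.p6), and capitals mark CAAGGTC, a core motif of the kind bound by the steroidogenic factor NR5A1.
Insl3: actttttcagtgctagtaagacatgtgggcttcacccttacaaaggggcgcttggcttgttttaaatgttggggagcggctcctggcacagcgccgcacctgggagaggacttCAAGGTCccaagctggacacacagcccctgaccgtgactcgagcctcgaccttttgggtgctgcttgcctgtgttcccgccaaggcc
The motif, on either strand, was found in 1 of 10 Leydig cell genes with a RefSeq promoter and in 3.32% of all RefSeq promoters. Of the 50-base windows of the *Insl3* transcript, 61.8% also occur in transcripts of *Jak3*, which overlaps it, so reads of these genes may be mixed.

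The largest differences in P named by the rule were *Ptgds* (log2 difference 4.95), *Lcn2* (4.85), *Insl3* and *Agt* (4.23). *Ptgds*, the lipocalin-type prostaglandin D synthase, had 1.05 and 62.3 FPKM in P and 0.353 and 6.12 in L/Z, and it rose by 3.67 (SE 0.51, adjusted p = 0.023). *Lcn2*, a secreted iron-binding lipocalin, had 0.208 and 33.8 in P and 0.222 and 3.01 in L/Z, and it rose by 3.28 (SE 0.61, adjusted p = 0.043). *Agt*, the precursor of angiotensin, had 0.970 and 35.9 in P but 4.09 and 4.77 in L/Z, and did not pass. *Fabp3*, a fatty acid carrier, and *Ephx1*, a microsomal epoxide hydrolase, had differences of 3.68 and 3.18 in P and of -0.47 and -0.87 in L/Z. The levels of *Agt*, *Fabp3* and *Ephx1* were highest in P at PD 52, as the Leydig cell sum was, and the part of Leydig cells in them was not tested.

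**Figure D4:**
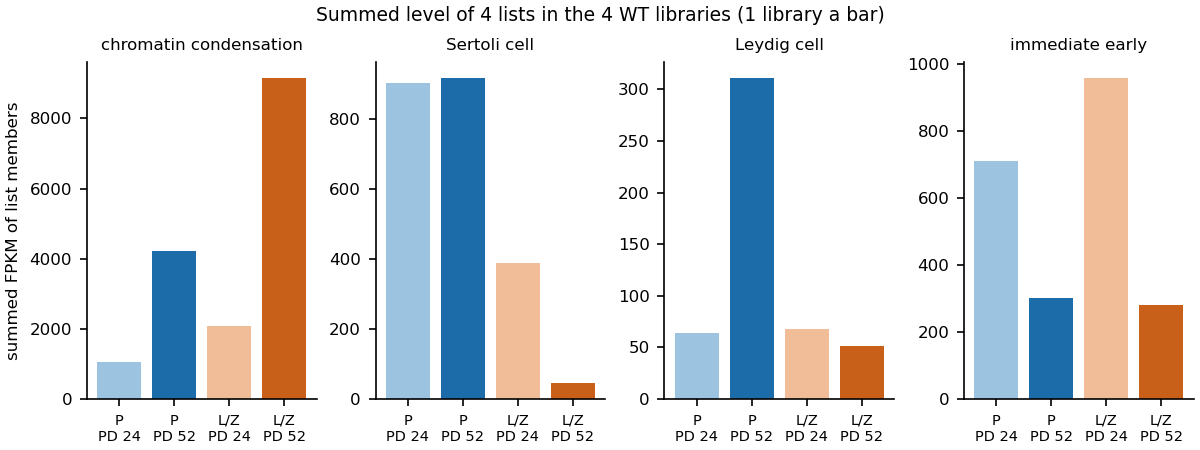
Summed FPKM of the measured members of 4 lists in the MFN2 WT libraries, 1 library a bar, with axes from 0. The condensation sum is higher at PD 52 in both fractions (1068 to 4229 and 2091 to 9145), the Sertoli cell sum drops in L/Z (387 to 46.0), the Leydig cell sum climbs in P (64.4 to 311), and the immediate early sum drops in both (709 to 301 and 957 to 282).

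Immediate early genes, which respond within minutes to stimulation of a cell, were lower at PD 52 for 14 of 14 listed members at both stages. *Egr3*, an immediate early gene outside the list, had 12.8 and 4.24 FPKM in P but 8.82 and 12.9 in L/Z. In P, 7 were at least 2-fold lower, with a median of -0.99, and in L/Z 11 were, with a median of -1.79. The genes that fell were *Fosb*, *Jun*, *Egr1*, *Atf3* and *Btg2*. *Egr1* had 113 and 30.2 FPKM in P and 176 and 36.2 in L/Z (log2 -2.06, SE 0.27, adjusted p = 0.022). *Fosb* had 81.1 and 18.0 in P and 123 and 33.5 in L/Z (-1.98, SE 0.27, adjusted p = 0.023). *Atf3*, a stress-induced factor, had 52.4 and 10.2 in P and 42.3 and 5.77 in L/Z (-2.47, SE 0.27, adjusted p = 0.019). *Fos* had 77.2 and 37.3 in P and 154 and 51.5 in L/Z (adjusted p = 0.052).

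Markers of further somatic cells were present as well. The summed FPKM of the macrophage genes went from 66.0 to 87.5 in P and from 160 to 221 in L/Z. That of the 9 peritubular myoid genes went from 61.2 to 65.2 and from 180 to 185. At PD 52 *Aif1* alone held 70.9 and 156 of the macrophage sums, and *Actg2* 49.3 and 118 of the myoid sums. Most members were lower at PD 52, namely 13 of 16 macrophage genes in P and 14 in L/Z, and 6 and 7 myoid genes. The myoid medians were -0.38 in P and -0.46 in L/Z. Of 19 macrophage genes 16 were measured, with medians of -0.79 in P and -0.50 in L/Z, and 1 fell, the complement gene *C1qa* (4.10 and 0.66 FPKM in P, 10.5 and 3.79 in L/Z). *Lyz2* had 6.10 and 0.947 in P and 8.69 and 5.28 in L/Z. *Aif1* went the other way, with 28.1 and 70.9 in P and 72.1 and 156 in L/Z, as did *Actg2* among the peritubular myoid genes, which rose from 20.2 to 49.3 in P and from 45.8 to 118 in L/Z (adjusted p = 0.048). *Acta2*, the smooth muscle actin of myoid cells, had 23.2 and 7.31 in P and 91.1 and 41.1 in L/Z, and it fell by 1.33 (SE 0.27, adjusted p = 0.049). *Eln*, elastin, had 5.87 and 0.308 in P and 23.1 and 1.60 in L/Z, and it fell by 2.80 (SE 0.28, adjusted p = 0.015). Endothelial genes were measured for 2 of 8 members and red blood cell genes for 2 of 5. The erythroid *Alas2*, X-linked and the first enzyme of haem synthesis, had 0.681 and 8.40 in P.

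Genes of the cytosolic ribosome were higher at PD 52 in P and not in L/Z, with no test between the stages. The 80 measured ribosomal protein genes had a median of 0.97 in P, with 79 above 0, 35 at least 2-fold higher and 0 lower. In L/Z the median was -0.16, with 21 above 0, 0 higher and 3 lower. *Rpl36* had 454 and 1042 FPKM in P and 393 and 489 in L/Z, and *Rplp1* had 442 and 875 in P and 470 and 365 in L/Z. Nuclear genes of the respiratory complexes (82 measured) had medians of 0.71 and 0.08, with 15 and 0 at least 2-fold higher. None of these genes passed the common test.

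These genes are short, and the difference in P went with gene length. Across 13357 protein-coding genes, which are not independent replicates, Spearman's rho between length and the age difference was -0.44 in P and -0.11 in L/Z, and -0.12 and -0.03 in the same contrast of the MFN2 cKO libraries. In P the median was 0.71 for genes of 501 to 1000 bases and -0.33 for those over 8000. After the running median of genes of like length was subtracted, the median was 0.69 for ribosomal protein genes in P and 0.33 for respiratory genes. At least 2-fold higher in P were then 15 of the 80 ribosomal protein genes and 3 of the 82 respiratory genes. In L/Z 4 and 6 were lower. Condensation genes, which are short too, kept medians of 1.28 in P and 1.39 in L/Z. On this adjusted scale 805 genes were at least 2-fold higher and 1528 lower in P, and 976 and 1114 in L/Z, the reverse of the order before at both stages. In the common fit 36 rose and 30 fell. Of the 27 genes named singly that passed without the adjustment, 17 did not pass with it.

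**Figure D5:**
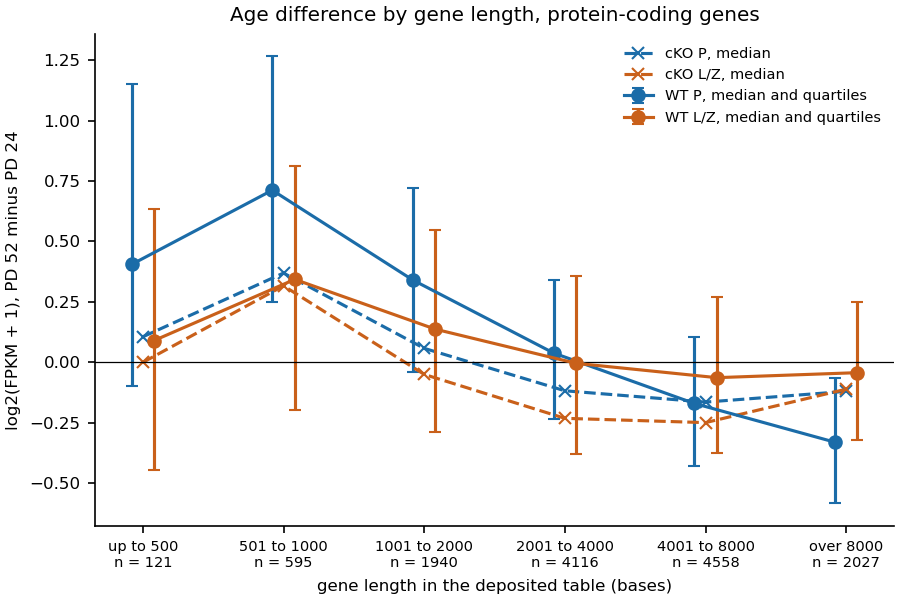
Median PD 52 minus PD 24 difference of log2(FPKM + 1) of protein-coding genes by gene length in bases, for P (blue) and L/Z (orange); solid lines with quartile bars are MFN2 WT and dashed lines are MFN2 cKO. In MFN2 WT P the median goes from 0.71 at 501 to 1000 bases to -0.33 above 8000, and in L/Z from 0.34 to -0.04.

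The library of P at PD 52 also held more ribosomal RNA. Genes annotated as rRNA took 0.359% of its reads, against 0.0408% in P at PD 24, and 0.035% and 0.0687% in L/Z at PD 24 and PD 52. *Gm23935*, a 57-base gene annotated as a miRNA on chromosome 16, had the highest FPKM of each library, 5794 and 88643 in P and 5054 and 16843 in L/Z. All its 50-base windows also occur in other genes. Their part in the length pattern was not tested.

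Mitochondrially encoded genes took 1.30% of reads in P at PD 24 and 1.09% at PD 52, and 1.13% and 0.495% in L/Z. The 13 protein-coding members had medians of -0.28 and -0.83, with 4 and 1 above 0, and 0 passed the test. After length adjustment the medians were -1.03 and -1.11, with 7 members at least 2-fold lower in P and 8 in L/Z. *mt-Cytb*, of complex III, had 1739 and 1100 FPKM in P and 1404 and 741 in L/Z. *mt-Co1*, of complex IV, had 4534 and 4081 in P and 3114 and 1753 in L/Z, and shares 51.1% of its windows with other annotated genes.

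Proteins paired as a testis and a somatic form, most of them metabolic, were compared by form. The pairs also hold the ribosomal proteins *Rpl10l* and *Rpl10* and the carriers *Slc25a31* and *Slc25a4*, and *Cyct* and *Cycs*. *Hk1* (log2 differences 0.76 in P and 1.33 in L/Z) was counted as the testis form beside *Hk2*. The 12 testis forms had medians of 0.56 in P and 0.52 in L/Z, and the 12 somatic forms 0.20 and -0.63. After length adjustment the medians in P were 0.11 for the testis forms and 0.07 for the somatic forms, and in L/Z 0.42 and -0.84. *Gapdhs*, the glyceraldehyde-3-phosphate dehydrogenase of the sperm tail, had 86.7 and 232 FPKM in P and 182 and 602 in L/Z, and it rose by 1.56 (SE 0.24, adjusted p = 0.028). Its somatic counterpart *Gapdh* had 1.64 and 1.09 in P and 0.86 and 0.47 in L/Z. *Pgk1*, the X-linked counterpart of *Pgk2*, had 7.05 and 6.56 in P and 7.36 and 4.41 in L/Z.

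X-linked protein-coding genes, silenced as a body in pachytene spermatocytes, had a median of 0.12 in P and -0.38 in L/Z over 556 genes, beside -0.05 and 0.01 over 12753 autosomal genes. At least 2-fold differences were found upward in 54 (9.71%) and downward in 9 (1.62%) in P, and in 15 (2.70%) and 78 (14.0%) in L/Z. Over all genes tested the shares were 8.33% and 4.53% in P, and 7.37% and 5.0% in L/Z. Over the autosomal genes they were 5.91% and 2.28% in P, and 4.04% and 4.52% in L/Z. The median in P was 0.034 and the counts 16 and 15 after length adjustment, and the median was 0.0167 with no FPKM filter and 0.32 with FPKM above 5. In L/Z the length-adjusted median was -0.38, with 8 and 84. The limma fit called 4 up and 8 down of the 556, beside 203 and 83 of the 12753 autosomal genes. *Tsga8*, expressed in spermatids, had 70.7 and 244 FPKM in P and 161 and 247 in L/Z. *Maged1* had 94.7 and 51.4 in P and 58.0 and 19.1 in L/Z. The X-linked list includes 2 multicopy genes at opposite ends, *Gm14632*, which fell from 10.2 to 0.216 in P and from 4.41 to 0.0773 in L/Z (adjusted p = 0.019), and *Gm10488*, which rose from 0.510 to 8.49 and from 1.88 to 42.7 (adjusted p = 0.015). Every 50-base window of both occurs in other genes, so the reads may belong to other copies.

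Long noncoding RNAs had differences whose direction in P depended on the length adjustment. Of 1588 lincRNAs, 272 were at least 2-fold higher and 42 lower in P, and 310 and 17 in L/Z, with medians of 0.27 and 0.53. After length adjustment the lincRNA counts were 99 and 154 in P, with a median of -0.16, and 140 and 26 in L/Z, with a median of 0.34. The 959 antisense genes had 113 and 49 in P and 148 and 12 in L/Z, and since no strand setting was given in the sources used here, their reads cannot be told from those of the genes opposite. Length-adjusted, the antisense counts were 31 and 178 in P, with a median of -0.29, and 76 and 22 in L/Z, with a median of 0.22. Of 217 snoRNAs, 18 were higher (8.29%) and 77 lower (35.5%) in P, and 39 (18.0%) and 48 (22.1%) in L/Z. Over all genes tested the shares were 8.33% and 4.53% in P, and 7.37% and 5.0% in L/Z. After length adjustment the snoRNA counts were 8 and 101 in P and 30 and 52 in L/Z. Of snRNAs 28.9% were lower in P, and of miRNAs 30.8%. The median snoRNA had 126 bases, so an FPKM of 1 rests on few reads, and P at PD 24 was the deepest of the 4 libraries.

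*Mfn2*, the mitofusin gene floxed in these mice, had 77.1 and 62.2 FPKM in P and 82.2 and 97.5 in L/Z, log2 differences of -0.31 and 0.24, and did not pass (adjusted p = 0.96). Among the other genes named by the rule, *Car2*, a carbonic anhydrase, rose from 1.88 to 17.5 in P and from 3.71 to 40.7 in L/Z (adjusted p = 0.011), and *1700012A03Rik* rose from 5.56 to 56.6 and from 10.4 to 91.0 (adjusted p = 0.011). *Cnn3*, a calponin, fell from 12.3 to 1.70 in P and from 10.1 to 3.08 in L/Z (adjusted p = 0.028).

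The same contrast in MFN2 cKO mice shares no library with this one. Condensation genes had medians of 5.16 in P and 6.80 in L/Z there, Sertoli cell genes -1.40 and -0.99, Leydig cell genes 0.92 and -0.55, and immediate early genes -0.58 and -1.05. The difference between the genotypes' age differences was tested with limma over all 8 libraries (21175 genes tested). After adjustment 0 genes passed (0.0%), 1959 had an unadjusted p under 0.05, and the smallest adjusted p was 0.082. *Tnp1* had the difference WT minus cKO of -4.35 (SE 0.41, adjusted p = 0.16), with log2 age differences of 1.87 and 1.84 in MFN2 WT and 5.60 and 6.80 in MFN2 cKO, where it began from 1.85 FPKM in P and 14.3 in L/Z at PD 24. *Prm1* had -5.33 (SE 0.70, adjusted p = 0.16).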

How the data were processed

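Total RNA was sequenced as paired-end libraries. The authors made FPKM values per gene (Novomagic) and deposited them unlogged with gene lengths. The submitters' processing notes name CASAVA 1.4 and Bowtie 0.12.2, with no role. Coordinates were identical to GENCODE M21 (GRCm38) for 98.3% of genes. FPKM times length gave whole reads for 100% of values (tolerance 0.01), used for depth and for 95% Clopper-Pearson intervals of ratios (counting error only).

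Genes with FPKM above 1 in any of the 4 MFN2 WT libraries were compared as log2(FPKM + 1), which understates changes of low genes. limma 3.58.1 (trend, Benjamini-Hochberg, adjusted p under 0.05) fitted stage and age with 1 residual degree of freedom, and the interaction with 2. Its p-values measure the spread between these libraries, mostly as shared by genes of like level, and that spread may be technical. In simulated data for the common effect (19417 genes, 200 changed), 0 changes of log2 1 were recovered, 183 of log2 2 (20 false calls) and 200 of log2 3 (41 false calls).

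Members and lists were chosen with earlier results of these data known. Genes named singly were the 4 largest rises and falls at each stage and at both (protein-coding, FPKM above 10), the 4 differing most between stages each way, the 4 most abundant of each list, fixed markers, *Mfn2* and the gene of highest FPKM. List members that passed the test, *Hils1*, *H1fnt*, *Gapdh* and *Pgk1* were named after their values were seen. The length adjustment (minus the running median of the 201 protein-coding genes nearest in length) was added after the data were examined.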

Additional observations from a re-analysis of the deposited data

Results flagged for a closer look

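The 2 results below stood apart because the age difference went opposite ways between groups. *Hsd3b6* was higher at PD 52 in P of MFN2 WT mice (log2 difference 2.75) and lower in L/Z (-1.46), each from 1 pair of libraries, and this was not tested. *Gm21953* was lower at PD 52 in both MFN2 WT pairs (mean log2 difference -2.74; 63.5 to 6.85 FPKM in P and 15.4 to 2.02 in L/Z) and higher in both MFN2 cKO pairs (mean 1.404; 0.611 to 8.61 and 4.27 to 5.18). For *Gm21953* the limma interaction gave an adjusted p of 0.16. Every 50-base window of its transcript occurs in other genes.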

How the results depend on the processing

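The depth of 1 library a group limits every within-stage difference to counting error. With a pseudocount of 0.1, 2787 genes were at least 2-fold higher and 2013 lower in P, 2614 and 2087 in L/Z, and 1212 and 622 at both stages. From the ratio of scaled reads the counts were 2634 and 2245 in P and 2531 and 2383 in L/Z. With FPKM above 5, 409 were lower in P, 905 higher and 538 lower in L/Z, and 114 lower at both. Among protein-coding genes alone 812 were higher and 300 lower in P, 534 higher and 661 lower in L/Z, and 301 higher and 110 lower at both. Adjusted for gene length, 805 were higher and 1528 lower in P, 976 and 1114 in L/Z, and 301 and 294 at both. The counts with no FPKM filter and after median-of-ratios scaling stayed within 1.5 times.

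The common effect called 0 genes up and 0 down with no FPKM filter, after median-of-ratios scaling, with no stage term, with all 8 libraries in the fit and with no variance trend. Leaving out either MFN2 WT pair in the 8-library fit gave 0 to 0 calls, the remaining pair being assumed to vary like the MFN2 cKO pairs. FPKM above 5 gave 778 up, protein-coding genes 696 up and 385 down, voom on recovered reads 794 and 402, and length adjustment 36 and 30. The interaction called 0 except with a pseudocount of 0.1 (4 up and 39 down). Leaving out a stage left it no residual degree of freedom, so that was not run. The cause of these differences was not tested.

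Of 288 list medians recomputed, 256 stayed inside the 95% order-statistic interval of the median. With a pseudocount of 0.1 the median was -2.75 for Sertoli cell genes in L/Z, -1.41 for macrophage genes in P, 0.18 and -0.54 for chromosome X in P and L/Z, 1.09 for chromosome Y in P and 0.11 for all genes in L/Z. With no filter it was 0.0167 and -0.14 for chromosome X, 0.0188 for chromosome Y in P and 0.0052 for all genes in L/Z. With FPKM above 5 it was 0.32 and -0.25 for chromosome X and 0.0422 and 0.17 for all genes. After median-of-ratios scaling it was, in L/Z, 0.40 for spermiogenic regulators, -0.16 for meiotic division genes and 0.0265 for all genes. Over protein-coding genes it was -0.049 in P and -0.0039 in L/Z, where it changed sign.

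Length adjustment gave 0.97 for serine kinases, -1.22 for macrophage genes, 0.11 for testis forms, 0.0338 for chromosome X and 0.0866 for chromosome Y in P. It gave 0.69 and -0.30 for ribosomal protein genes in P and L/Z, 0.33 and -0.045 for respiratory genes, -1.03 and -1.11 for mitochondrially encoded genes, and -0.0644 and 0.0332 for all genes. No paired analysis by replicate number was possible because each group held 1 library.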
